A study of Homo sapiens with 6 samples.

Results

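The genes described here are 10 components of the NF-kB pathway, out of 58676 gene IDs in the deposited table. They are the 5 DNA-binding subunits RELA, RELB, REL, NFKB1 and NFKB2, the 3 inhibitors NFKBIA, NFKBIB and NFKBIE, and the 2 feedback enzymes TNFAIP3 and BIRC3. They were chosen by name, and each symbol matched 1 Ensembl ID through GENCODE release 29. The cells were a human line with the label HCC, grown in DMEM with serum, and their RNA was sequenced in 6 libraries, 3 labelled knockdown and 3 labelled control. The titles of the knockdown libraries name a sponge, a transcript that takes up a microRNA, and the series title names miR-19a. The cell line is not named and the labels do not say what the control cells received. The title speaks of treated cells, and which libraries belong to the knockdown is known from the group labels and titles alone. No label gives the level of the microRNA in any library. No label ties a replicate to its own culture, and p-values therefore cover only library-to-library spread, part of which may be technical.

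NF-kB is a family of dimeric transcription factors that sit in the cytoplasm bound to IkB proteins until a signal releases them. In the canonical arm, receptors for TNF or interleukin-1 activate an IKK kinase complex, which marks the IkB proteins for destruction and frees dimers of RELA, REL and the product of NFKB1. In the non-canonical arm, receptors such as the lymphotoxin receptor stabilise the kinase encoded by MAP3K14, which leads to cutting of the NFKB2 precursor and frees its partner RELB. Many genes of the pathway are themselves targets of NF-kB, including NFKBIA, TNFAIP3, BIRC3, RELB and NFKB2, which makes the pathway a feedback loop. In liver cells the pathway is known for controlling inflammatory genes and survival after TNF.

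Values were RPKM, reads scaled by exon length and by the assigned reads of the library. Levels of different genes are compared on this scale, which divides by the length of all annotated exons of a gene. Knockdown replicate 2 was left out, since its column is not in the order of the gene IDs: its Spearman correlation across genes was at most 0.0191 with any other library, against 0.822 to 0.887 among the other 5, leaving 2 knockdown and 3 control libraries. Assigned reads, recovered from the RPKM values, ranged from 1948940 in control replicate 2 to 19605312 in control replicate 3. The shallow control replicate 2 holds 20 to 151 reads for each of the 10 genes, so 20 BIRC3 reads there give 1.36 RPKM with an exact 95% Poisson interval of 0.834 to 2.11 RPKM, which covers counting error only. Hepatocyte markers were abundant in both groups, with ALB at 817 and 870 RPKM in knockdown and 652 to 951 RPKM in control. The summed level of the 10 hepatocyte markers was 2065 and 2272 RPKM in knockdown and 2031 to 2349 RPKM in control. Single markers went both ways, 5 higher and 5 lower in knockdown by log2 difference. SERPINA1 and TF lay above all controls in knockdown, against 14.3% of genes tested. APOB lay below all controls, against 13.6%, at 83.5 and 45.7 RPKM in knockdown and 85.6 to 134 RPKM in control.

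Promoter sequence is shown because several members are NF-kB targets themselves, with RELA for contrast. NF-kB dimers bind a degenerate element called the kB consensus motif. RefSeq promoters (GRCh38.p14, 250 bases before to 50 after an annotated start) were held for 8 of the 10 genes, all except RELB and NFKBIE. Capitals mark stretches that match the kB consensus motif on either strand, and overlapping matches run together:
NFKBIA, chr14:35404700-35404999, minus strand: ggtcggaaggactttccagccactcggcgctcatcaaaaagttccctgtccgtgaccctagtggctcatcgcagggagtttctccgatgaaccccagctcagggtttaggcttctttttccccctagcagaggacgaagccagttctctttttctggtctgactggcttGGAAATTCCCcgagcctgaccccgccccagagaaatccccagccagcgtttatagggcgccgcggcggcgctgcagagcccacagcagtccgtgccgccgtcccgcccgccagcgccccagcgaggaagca
NFKB2 (second of 3 starts), chr10:102394328-102394627, plus strand: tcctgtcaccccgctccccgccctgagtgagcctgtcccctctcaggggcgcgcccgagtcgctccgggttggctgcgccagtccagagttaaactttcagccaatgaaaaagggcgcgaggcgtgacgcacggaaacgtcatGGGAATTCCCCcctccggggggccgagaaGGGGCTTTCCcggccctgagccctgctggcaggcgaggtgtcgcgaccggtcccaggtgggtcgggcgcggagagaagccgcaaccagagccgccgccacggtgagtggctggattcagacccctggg
TNFAIP3, chr6:137867009-137867308, plus strand: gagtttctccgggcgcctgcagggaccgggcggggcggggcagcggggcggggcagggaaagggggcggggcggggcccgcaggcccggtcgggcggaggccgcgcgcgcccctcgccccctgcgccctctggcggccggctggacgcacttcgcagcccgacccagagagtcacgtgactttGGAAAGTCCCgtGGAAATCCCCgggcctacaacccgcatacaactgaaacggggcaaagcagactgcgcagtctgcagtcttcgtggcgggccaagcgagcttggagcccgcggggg
BIRC3, chr11:102317234-102317533, plus strand: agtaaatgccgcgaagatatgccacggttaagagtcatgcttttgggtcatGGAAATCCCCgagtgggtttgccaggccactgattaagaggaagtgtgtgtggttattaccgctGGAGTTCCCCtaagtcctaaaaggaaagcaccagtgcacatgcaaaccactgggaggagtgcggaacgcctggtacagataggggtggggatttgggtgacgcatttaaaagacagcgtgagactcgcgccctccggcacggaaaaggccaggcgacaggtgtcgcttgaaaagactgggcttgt
RELA (second of 2 starts), chr11:65662867-65663166, minus strand: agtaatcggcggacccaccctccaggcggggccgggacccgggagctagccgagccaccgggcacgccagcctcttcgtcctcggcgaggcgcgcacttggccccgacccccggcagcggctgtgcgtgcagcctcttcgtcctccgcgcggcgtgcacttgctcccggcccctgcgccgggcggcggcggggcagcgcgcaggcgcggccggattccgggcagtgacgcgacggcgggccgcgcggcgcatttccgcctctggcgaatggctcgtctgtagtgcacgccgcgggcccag

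Of the 8 genes with a promoter, 7 held at least 1 match at 1 of their starts, against 7.09% of 27305 genes searched in the same way. RELA, the exception, had no match at either of its starts, yet its knockdown libraries also lay above all controls in RNA level. NFKB2 had 2 separate stretches at each of the 2 starts that held a match, and TNFAIP3 and BIRC3 had 2 each. A TNFAIP3 match and an NFKB2 match are exact copies, on either strand, of the kB element of the immunoglobulin kappa enhancer, which 0.227% of genes held. That NFKB2 match lies at the third of its 3 starts, whose sequence is not shown above. REL, NFKB1 and NFKBIB also held a match, and their groups overlapped in RNA level. A match shows only that the letters are present and is no measurement of binding.

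The microRNA of the study is shown because its targets are recognised through its seed, bases 2 to 8, given in capitals (RefSeq, GRCh38.p14):
hsa-miR-19a-3p, chr13:91350939-91350961, plus strand: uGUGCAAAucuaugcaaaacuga
hsa-miR-19b-3p, chr13:91351245-91351267, plus strand: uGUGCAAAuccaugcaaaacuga

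The match to this shared seed, TTTGCAC, stands in the annotated 3' UTR of 2 of the 10 members, TNFAIP3 and BIRC3, and in that of 11.6% of 19436 coding genes. In GRCh38 the sites lie on the plus strand, with the match in capitals:
TNFAIP3, chr6:137883180-137883208: agtatttgaaaTTTGCACatttaattgtc
BIRC3, chr11:102339187-102339215: taggcacccttTTTGCACcatgtgttttt
The TNFAIP3 site is followed by A, the longer 8-base form. RELB, NFKB2 and NFKBIA held no such site, in 3' UTRs of 408, 148 and 502 bases. Those of TNFAIP3 and BIRC3 were longer, at 1993 and 2301 bases, while REL held no site in 9075 bases. The share over coding genes was not matched for length, and a part of these sites in the RNA differences was not tested.

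The comparison of knockdown with control asks how RNA levels differ when the sponge is present. For 7 of the 10 members, each knockdown library exceeded every control: RELA, RELB, NFKB2, NFKBIA, NFKBIE, TNFAIP3 and BIRC3. This compares with 14.3% of the 15408 genes tested. In bulk RNA, fewer cells of a type and less RNA per cell cannot be told apart. None of the 10 lay below all controls, against 13.6% of genes tested. The log2 difference was above 0 for 9 of 10 members, against 50.0% of genes tested. The median was 0.62 for the members and 0.00 for all genes. The log2 difference was 0.7 or more for 5 members (RELB, NFKB2, NFKBIA, TNFAIP3 and BIRC3), against 5.27% of genes tested. At an unadjusted p under 0.05, 6 members were higher (RELB, NFKB2, NFKBIA, NFKBIE, TNFAIP3 and BIRC3) against 3.80% of genes, and 0 were lower against 2.54% of genes. At a Benjamini-Hochberg adjusted p under 0.05 over all genes, limma called 0 members and 0% of genes in either direction, and the lowest adjusted p of any gene was 0.71. On the recovered reads, limma voom called 0 genes, or 4 with sample weights, and 0 members in either fit. Unless another setting is named, values from limma are two-sided tests on log2(RPKM + 0.5) over genes that reached 0.5 RPKM in 3 or more of the 5 libraries, a filter that all 10 members passed. The 10 members were chosen with earlier results of these libraries known, so their counts are a description.

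**Figure D1:**
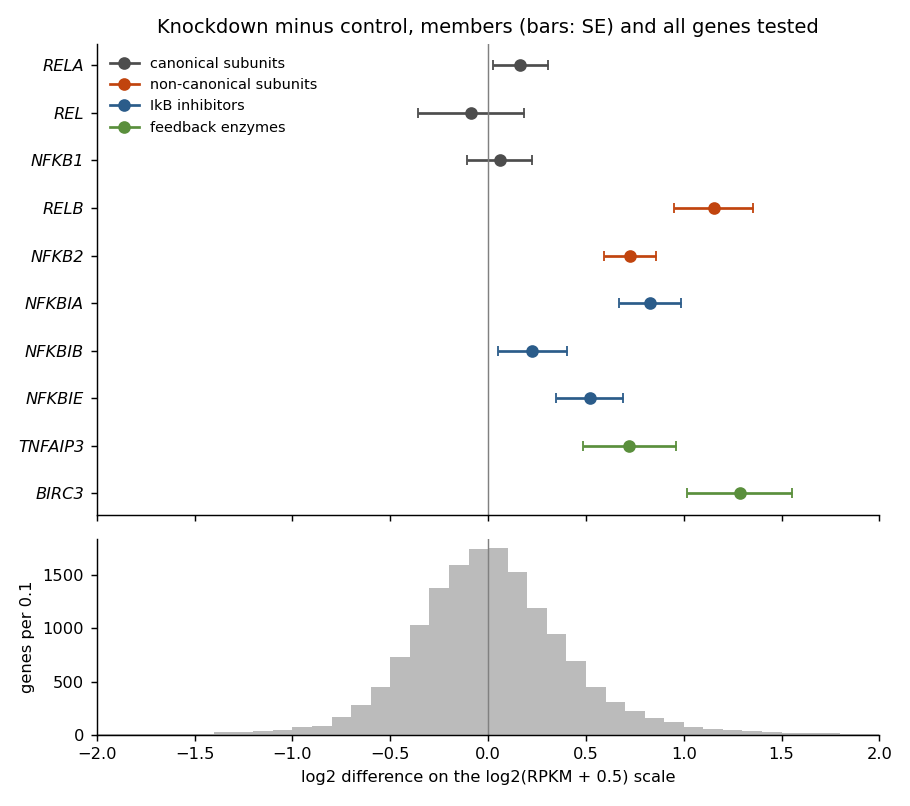
The upper panel gives the log2 difference (knockdown minus control, bars SE) of the 10 genes in role order, and the lower panel the number of genes per bin of 0.1 among the 15408 tested. RELB, NFKB2, NFKBIA, TNFAIP3 and BIRC3 lie at 0.72 or above, where the histogram thins out, and RELA, REL and NFKB1 lie near its peak at 0.

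Among the subunits, the pair of the non-canonical arm stood higher in knockdown, while the 3 of the canonical arm lay close to control or overlapped it. RELB (ENSG00000104856, chromosome 19 from 45001430 to 45038198 of GRCh38), the subunit that carries the activation domain of the non-canonical dimer, was at 17.0 and 20.7 RPKM in knockdown replicates 1 and 3, against 9.55, 6.76 and 8.45 RPKM in control replicates 1, 2 and 3. The groups were well apart, with the lower knockdown library above the highest control. The means were 18.9 ± 2.60 RPKM in knockdown (SD, n = 2) and 8.25 ± 1.40 RPKM in control (SD, n = 3), a log2 difference of 1.15 (SE 0.20, limma unadjusted p = 0.00171, adjusted p = 0.71).

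NFKB2 (ENSG00000077150, chromosome 10 from 102394110 to 102402529), which encodes the precursor that binds RELB, was at 29.4 and 30.8 RPKM in knockdown, against 18.1, 17.3 and 18.5 RPKM in control. Each group was tight, with an SD of 0.968 RPKM in knockdown and 0.636 RPKM in control, and a wide gap between them. The log2 difference was 0.73 (SE 0.13, limma unadjusted p = 0.00216, adjusted p = 0.71). Its value stayed between 0.56 and 0.77 over the alternatives, and that of RELB between 0.88 and 1.29.

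RELA (ENSG00000173039, chromosome 11 from 65653596 to 65663094), the main activating subunit of the canonical arm, was at 13.1 and 13.3 RPKM in knockdown, against 11.1, 11.9 and 12.2 RPKM in control. The groups did not overlap but lay close together, with a log2 difference of 0.16 (SE 0.14, limma adjusted p = 0.78). NFKB1 (ENSG00000109320, chromosome 4 from 102501329 to 102617302), which encodes the DNA-binding partner of RELA as a longer precursor, was at 11.0 and 9.05 RPKM in knockdown, against 8.81, 9.68 and 10.3 RPKM in control. Here the groups overlapped, with 1 knockdown library above all controls and the other among them, and the log2 difference was 0.06 (SE 0.17, limma adjusted p = 0.93).

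REL (ENSG00000162924, chromosome 2 from 60881521 to 60931610), a canonical subunit best known from lymphoid cells, was the scarcest of the 10 at 0.637 and 0.415 RPKM in knockdown, against 0.455, 0.779 and 0.542 RPKM in control. These values rest on 78 and 83 reads in knockdown and on 55, 20 and 140 reads in control, and the groups overlapped. The log2 difference was -0.09 (SE 0.27, limma adjusted p = 0.94), and its sign changed with the setting. Exons of a second annotated gene, AC010733.2, cover 43.3% of the REL exon length, and AC010733.2 is listed at 0 in all 5 libraries, so the REL value is uncertain.

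**Figure D2:**
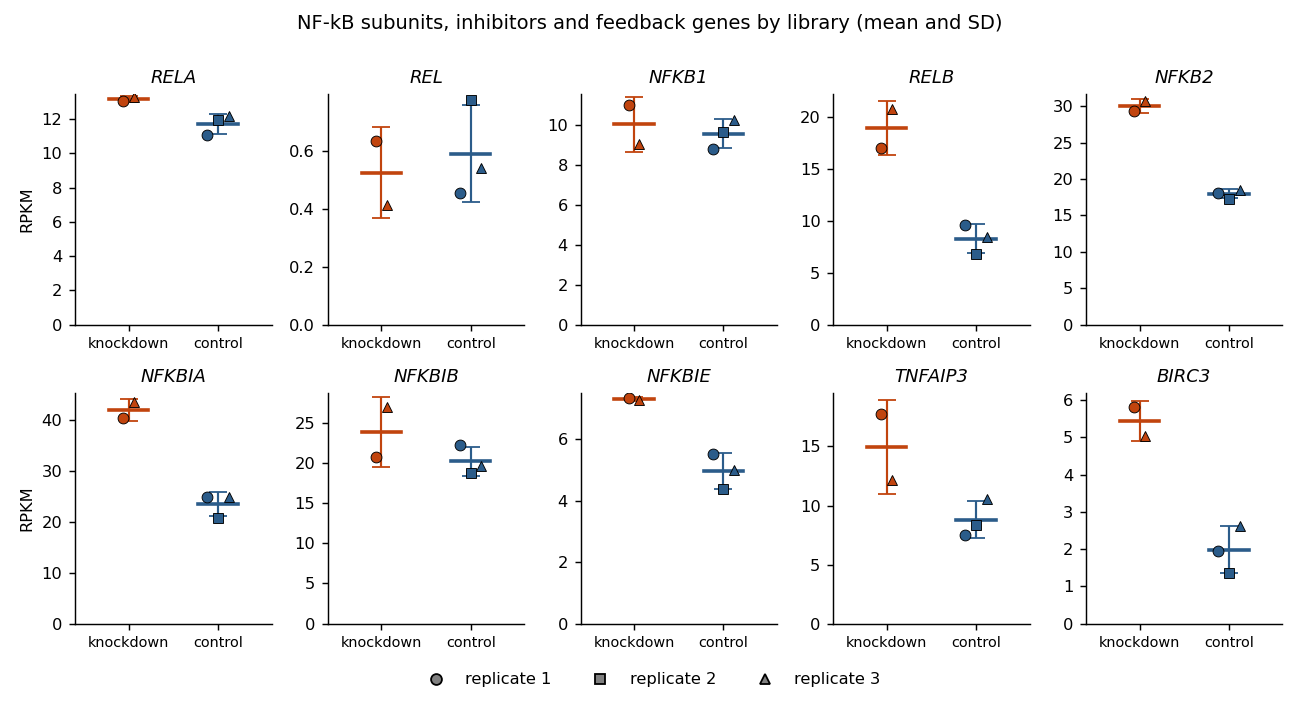
Each panel gives RPKM on an axis from 0 for 1 gene, with knockdown replicates 1 and 3 on the left and control replicates 1, 2 and 3 on the right; horizontal lines are means and bars are SD. RELB, NFKB2, NFKBIA, NFKBIE, TNFAIP3 and BIRC3 show a gap between the groups, RELA a narrow one, and REL, NFKB1 and NFKBIB overlap.

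Ratios within a library do not depend on how libraries are scaled. RELB per RELA was 1.30 and 1.56 in knockdown, against 0.863, 0.567 and 0.693 in control. RELB thus exceeded RELA in RPKM in both knockdown libraries and in none of the controls. That crossing of 1 depends on the exon lengths used, 3035 bases for RELB and 5464 for RELA. In reads RELB was below RELA in every library, at 481 and 956 against 664 and 1106 in knockdown. Which of the 2 RNAs is more abundant is therefore not settled. NFKB2 per NFKB1 was 2.66 and 3.40 in knockdown, against 2.06, 1.79 and 1.80 in control, above 1 in every library. On the log2(RPKM + 0.5) scale the RELB to RELA ratio differed by 0.99 and the NFKB2 to NFKB1 ratio by 0.67. For each the two-sided exact permutation p was 0.1 over 10 splits, also 0.1 when adjusted over these 2 ratios. The smallest p that 2 against 3 libraries allow is 0.1, so this test could not pass 0.05. Both ratios are of genes chosen with earlier results known. Over the alternatives the 2 differences ranged from 0.78 to 1.13 and from 0.46 to 0.83. Each was lowest after the trends of each library with exon length and GC content were taken out.

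RELB and NFKB2 together made up 65.2% and 69.3% of the summed RPKM of the 5 subunits in knockdown, against 57.7%, 51.8% and 53.9% in control. The summed subunit level was 72.7 ± 2.18 RPKM in knockdown (SD, n = 2) and 48.1 ± 1.79 RPKM in control (SD, n = 3), and most of that difference came from these 2 genes. The mean log2 level of RELB and NFKB2 minus that of RELA, REL and NFKB1 was 2.20 ± 0.252 in knockdown (SD, n = 2) and 1.31 ± 0.243 in control (SD, n = 3), a difference of 0.89, given without a test because it is a score over chosen genes.

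**Figure D3:**
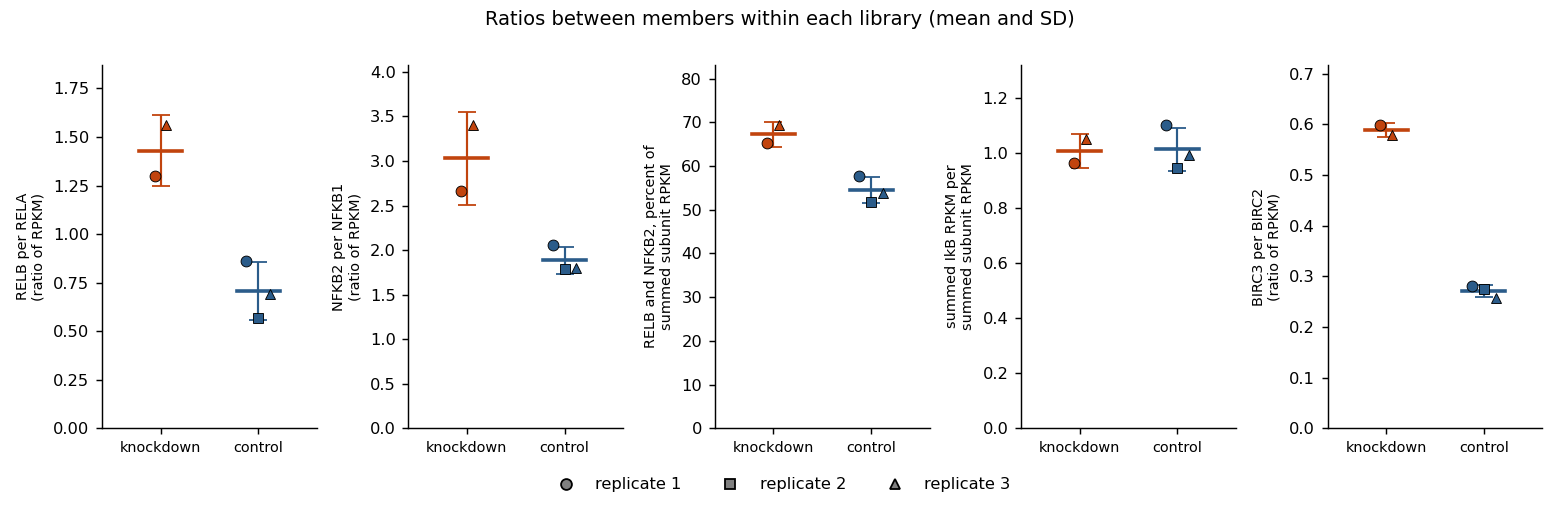
The panels give 5 quantities computed within each library from RPKM: RELB per RELA, NFKB2 per NFKB1, the percent of subunit RPKM held by RELB and NFKB2, summed IkB inhibitors per summed subunits, and BIRC3 per BIRC2; lines are means, bars SD, knockdown left and control right. In 4 panels the groups are apart, while inhibitors per subunit averaged 1.01 in both groups.

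The IkB inhibitors mask the nuclear import signals of the dimers. NFKBIA (ENSG00000100906, chromosome 14 from 35401511 to 35404749), the inhibitor that is destroyed and remade fastest after a signal and a classical NF-kB target, was at 40.5 and 43.6 RPKM in knockdown, against 25.0, 20.8 and 24.9 RPKM in control. It had the highest RPKM of the 10 genes in each of the 5 libraries, knockdown and control, and the groups were well apart. The log2 difference was 0.83 (SE 0.16, limma unadjusted p = 0.00243, adjusted p = 0.71), and it stayed between 0.71 and 0.88 over the alternatives.

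NFKBIE (ENSG00000146232, chromosome 6 from 44258166 to 44265788), an inhibitor that is also remade after a signal, was at 7.34 and 7.27 RPKM in knockdown, against 5.53, 4.37 and 5.0 RPKM in control. The knockdown libraries lay above the controls, by less than for NFKBIA, and the log2 difference was 0.52 (SE 0.17, limma unadjusted p = 0.0246, adjusted p = 0.71). It was 0.30 after the trends of each library with exon length and GC content were taken out. NFKBIB (ENSG00000104825, chromosome 19 from 38899700 to 38908893), an inhibitor whose RNA is known to respond less to NF-kB, was at 20.7 and 26.9 RPKM in knockdown, against 22.2, 18.8 and 19.6 RPKM in control. Knockdown replicate 1 lay among the controls, and the log2 difference of 0.23 (SE 0.18, limma adjusted p = 0.76) was 0.04 without knockdown replicate 3, 0.41 without knockdown replicate 1 and 0.00 with the length and GC trends removed. Exons of SIRT2 on the opposite strand overlap 40 bases of the NFKBIB exons, and the strand setting of the counting is not given.

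NFKBIA made up 59.1% and 56.1% of the summed RPKM of the 3 inhibitors in knockdown, against 47.5%, 47.3% and 50.3% in control. Summed over the 3 genes, inhibitor RNA was 73.2 ± 6.51 RPKM in knockdown (SD, n = 2) and 48.7 ± 4.46 RPKM in control (SD, n = 3). Per summed subunit RPKM, inhibitors came to 0.964 and 1.05 in knockdown, against 1.10, 0.946 and 0.991 in control. The groups overlapped in this ratio although both of its parts were higher in knockdown.

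The feedback enzymes act on ubiquitin chains. BIRC3 (ENSG00000023445, chromosome 11 from 102317450 to 102339403), a ubiquitin ligase that supports TNF signalling to the canonical arm and restrains the non-canonical kinase, was at 5.81 and 5.05 RPKM in knockdown, against 1.96, 1.36 and 2.63 RPKM in control. Its log2 difference of 1.29 (SE 0.27, limma unadjusted p = 0.00382, adjusted p = 0.71) was the largest of the 10 as reported. It stayed between 1.09 and 1.47 over the alternatives, and without knockdown replicate 1 it was 1.19, below the 1.29 of RELB. The values rest on 406 and 577 reads in knockdown and on 135, 20 and 387 reads in control. Its paralogue BIRC2, which does the same work and is less dependent on NF-kB, was at 9.71 and 8.73 RPKM in knockdown, against 6.97, 4.98 and 10.2 RPKM in control, with overlapping groups. BIRC3 per BIRC2 was 0.598 and 0.579 in knockdown, against 0.281, 0.274 and 0.257 in control, a narrower spread than for either gene alone.

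TNFAIP3 (ENSG00000118503, chromosome 6 from 137867188 to 137883312), a ubiquitin-editing enzyme that shuts off signalling to IKK, was at 17.8 and 12.2 RPKM in knockdown, against 7.55, 8.33 and 10.6 RPKM in control. The knockdown libraries differed from each other more than they did for any other member on the RPKM scale except NFKBIB, and the lower of them lay just above control replicate 3. The log2 difference of 0.72 (SE 0.24, limma unadjusted p = 0.0257, adjusted p = 0.71) came to 0.46 when knockdown replicate 1 was left out and to 0.99 when knockdown replicate 3 was. An antisense gene, AL357060.1, shares 95 bases of its exons.

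The order of the levels differed between the groups in its upper part. In knockdown the order by mean RPKM was NFKBIA, NFKB2, NFKBIB, RELB, TNFAIP3, RELA, NFKB1, NFKBIE, BIRC3 and REL, and the ranges over libraries overlapped between RELB and TNFAIP3 and between TNFAIP3 and RELA. In control it was NFKBIA, NFKBIB, NFKB2, RELA, NFKB1, TNFAIP3, RELB, NFKBIE, BIRC3 and REL, with overlap between NFKBIA and NFKBIB, between NFKB1 and TNFAIP3 and between TNFAIP3 and RELB. By mean RPKM RELB was thus the fourth in knockdown and the seventh in control, while NFKBIE, BIRC3 and REL kept the last 3 places in both. Places between genes depend on the exon lengths used. In reads RELB was below RELA in every library, so whether RELB RNA passed RELA RNA is not settled.

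Upstream of the subunits, receptors and adaptors lay on both sides of 0. Of 17 listed canonical receptors and adaptors 13 were tested. In 6 the log2 difference was above 0 and in 7 it was below, the median was 0.00, and 0 were called. At an unadjusted p under 0.05, 2 of the 13 were higher, against 3.80% of genes tested, and 0 were lower. In 3 of the 13 both knockdown libraries lay above all controls, against 14.3% of genes tested, and 1 lay below them, against 13.6%. The 3 above all controls were TRAF2, TRADD and TICAM1. TNFRSF1A, the main TNF receptor, was at 24.2 and 24.4 RPKM in knockdown and 16.9 to 30.0 RPKM in control. MYD88, the adaptor of interleukin-1 and Toll-like receptors, was at 21.6 and 17.6 RPKM in knockdown and 21.6 to 22.9 RPKM in control, and both groups overlapped for RIPK1 and TRAF6 too. TRAF2, an adaptor of both arms that brings BIRC2 and BIRC3 to receptors, was at 11.6 and 14.1 RPKM in knockdown, against 9.60, 8.26 and 8.34 RPKM in control. Its log2 difference was 0.53 (SE 0.17, limma adjusted p = 0.71), or 0.35 with the length and GC trends removed. TRADD, the adaptor of the TNF receptor, was at 10.2 and 12.9 RPKM in knockdown, against 8.83, 6.60 and 6.14 RPKM in control. TICAM1, an adaptor of Toll-like receptors, was at 7.80 and 8.41 RPKM in knockdown, against 6.72, 3.26 and 7.66 RPKM in control. TRADD and TICAM1 were named after their values were seen.

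Kinase complexes of the canonical arm leaned the other way. Of 10 genes, 2 had a log2 difference above 0 and 8 one below, the median was -0.21, and 0 were called. In 3 of the 10 both knockdown libraries lay below all controls, against 13.6% of genes tested, and in 1 above them, against 14.3%. CHUK, which encodes the IKK subunit used by both arms, was at 3.59 and 2.89 RPKM in knockdown, against 4.61, 3.78 and 6.35 RPKM in control, a log2 difference of -0.51 (SE 0.26, limma adjusted p = 0.71), or -0.33 without control replicate 3. IKBKB, the main canonical IKK kinase, was at 4.36 and 3.42 RPKM in knockdown and 3.74 to 4.43 RPKM in control. IKBKG, their scaffold, was at 6.19 and 6.25 RPKM in knockdown and 6.25 to 8.39 RPKM in control, where the groups all but touched.

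Of the 6 genes that control the non-canonical kinase, 3 were above 0 and 3 below. In 2 of the 6 both knockdown libraries lay above all controls, against 14.3% of genes tested, and in 2 below them, against 13.6%. MAP3K14, the kinase itself, was low at 1.23 and 1.19 RPKM in knockdown and 0.904 to 1.15 RPKM in control, and TRAF3, which marks it for destruction, was at 4.20 and 2.97 RPKM in knockdown and 3.69 to 4.47 RPKM in control. Of the receptors of this arm, LTBR (16.0 and 16.7 RPKM in knockdown, 11.1 to 19.3 RPKM in control) and TNFRSF12A (59.9 and 72.2 RPKM in knockdown, 38.3 to 69.7 RPKM in control) were expressed, and CD40 was listed at 0 in all 5 libraries. None of the 10 listed ligands reached the filter. TNF was listed at 0 in all 5 libraries, LTB was at 0.350 and 0.257 RPKM in knockdown and at most 0.0665 RPKM in control, on 2 to 6 reads where it was seen, and the summed ligand level was 1.45 and 1.41 RPKM in knockdown and 0.996 to 1.42 RPKM in control.

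Other inhibitors and feedback genes divided. Of 15 listed 14 were tested, 10 of them above 0 and 4 below. The median was 0.10, 0 were called, and 5 of the 14 had both knockdown libraries above all controls, against 14.3% of genes tested. TNIP1, a partner of the TNFAIP3 protein, was the furthest from 0 of these at 41.1 and 42.4 RPKM in knockdown, against 28.4, 21.0 and 27.7 RPKM in control, a log2 difference of 0.70 (SE 0.18, limma adjusted p = 0.71). BCL3, a nuclear IkB family member, was at 25.3 and 30.5 RPKM in knockdown, against 19.9, 25.0 and 16.2 RPKM in control (log2 difference 0.46, SE 0.22, limma adjusted p = 0.71, and 0.17 with the length and GC trends removed). The groups touched or overlapped for NFKBIZ, another nuclear IkB (20.4 and 14.4 RPKM in knockdown, 14.8 to 18.4 RPKM in control), and for CYLD, a deubiquitinase (1.07 RPKM in both knockdown libraries, 0.673 to 1.39 RPKM in control). TRAF1, an adaptor induced by NF-kB, was at 1.32 and 1.18 RPKM in knockdown and 0.875 to 1.10 RPKM in control.

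Target genes outside this control loop were mostly above 0. Of 20 listed 12 were tested, 11 of them above 0 and 1 below. The median was 0.46, 0 were called, and 8 of the 12 had both knockdown libraries above all controls, against 14.3% of genes tested. CXCL8, a neutrophil chemokine, was at 38.6 and 44.5 RPKM in knockdown, against 25.8, 24.8 and 36.2 RPKM in control (log2 difference 0.53, SE 0.21, limma adjusted p = 0.71). ICAM1, an adhesion molecule, overlapped between the groups at 66.9 and 56.9 RPKM in knockdown and 39.3 to 57.2 RPKM in control. Its log2 difference of 0.32 (SE 0.21, limma adjusted p = 0.73) was 0.16 without control replicate 2 and 0.21 without knockdown replicate 1. IER3, an early response gene, was at 12.5 and 16.8 RPKM in knockdown and 8.70 to 19.1 RPKM in control.

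**Figure D4:**
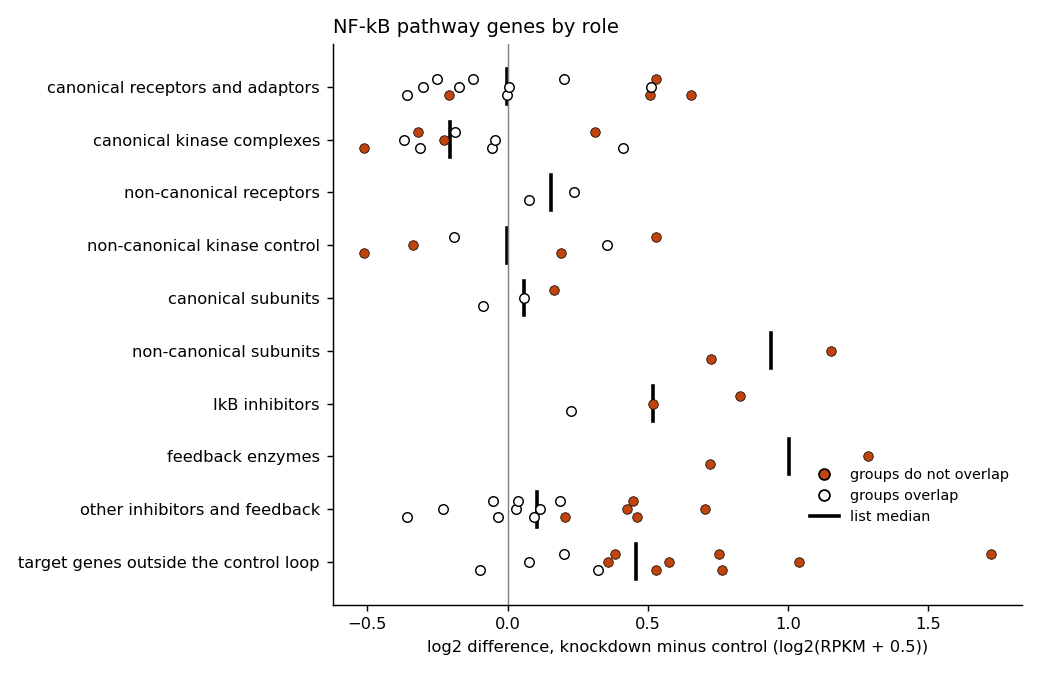
Each point is 1 tested gene, placed by its log2 difference (knockdown minus control) in a row for its role; filled points are genes whose 2 knockdown and 3 control libraries do not overlap, and black bars are list medians. The kinase complexes centre at -0.21, the receptors and adaptors at 0.00, and the non-canonical subunits, the inhibitors and the feedback enzymes lie to the right.

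Immune cells also express many of these genes, and markers of other cell types were read beside them. The summed level of 10 immune cell markers was 46.5 and 52.7 RPKM in knockdown and 45.2 to 51.6 RPKM in control, and 7 of the 10 were below 1 RPKM in all 5 libraries, among them the pan-leukocyte gene PTPRC at 0.0352 and 0.0431 RPKM in knockdown and 0 to 0.0713 RPKM in control. CD3D was named after its values were seen. Of the 3 tested immune markers, only CD3D lay above all controls in knockdown, against 14.3% of genes tested. It was at 6.14 and 6.09 RPKM in knockdown against 3.07 to 4.46 RPKM in control. CD14 made up most of the immune sum, at 30.6 and 36.8 RPKM in knockdown and 28.6 to 38.4 RPKM in control. The part of the immune markers in the results was not tested. The 7 fibroblast markers summed to 72.5 and 68.4 RPKM in knockdown and 63.9 to 83.7 RPKM in control. Most of that sum was LUM, at 54.5 and 53.5 RPKM in knockdown and 54.2 to 68.3 RPKM in control. Of the 4 tested, COL1A1 and COL1A2 lay above all controls, against 14.3% of genes tested, and PDGFRA below them, against 13.6%. The 4 endothelial markers summed to 0.406 and 0.388 RPKM in knockdown and 0.523 to 0.760 RPKM in control. All 4 were below 1 RPKM in all 5 libraries. Only PECAM1 was tested, and it lay below all controls, against 13.6% of genes tested.

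Length and base composition also vary among the members. The GC content of the longest transcript was 65.4% for RELB, 62.4% for NFKB2, 61.0% for NFKBIE and 60.5% for NFKBIB, and 34.8% for BIRC3. After the same removal of length and GC trends, the log2 difference was 0.88 for RELB, 0.56 for NFKB2, 0.71 for NFKBIA, 0.74 for TNFAIP3 and 1.44 for BIRC3. The median of the 10 was 0.43 there, and 6 members had both knockdown libraries above all controls, against 14.4% of genes tested in that setting.

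The genes whose profile over the 5 libraries was nearest to the mean centred profile of the 10 members, by root mean square difference in log2(RPKM + 0.5) among 13239 other genes with a mean of at least 1 RPKM, were MPP1, ANO7, IFIT3, DUSP10 and CAV1. MPP1, a membrane scaffold protein, was the nearest at a difference of 0.00407, with 3.93 and 3.82 RPKM in knockdown, against 2.46, 2.28 and 2.65 RPKM in control. IFIT3, an interferon-induced gene, was at 2.73 and 2.69 RPKM in knockdown, against 1.73, 1.55 and 1.74 RPKM in control. DUSP10, a phosphatase of stress kinases, and CAV1, which builds caveolae, were at 0.0365 and 0.0421. A likeness over 5 libraries is a description only.

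**Figure D5:**
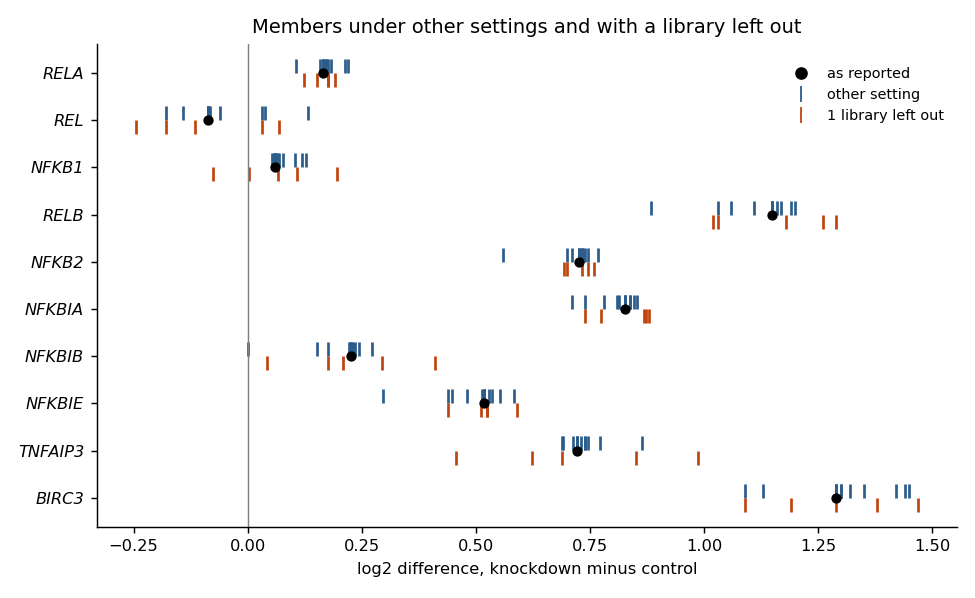
For each gene the black point is the log2 difference as reported, blue ticks are the other settings and orange ticks are fits with 1 library left out. RELB, NFKB2, NFKBIA, NFKBIE, TNFAIP3 and BIRC3 stay to the right of 0 throughout, and REL and NFKB1 cross it.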

How the data were processed

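RNA of 6 libraries (3 knockdown, 3 control) was measured by sequencing. The authors deposited 1 table of RPKM values, per the labels. The submitters' processing notes name HISAT2 and the build GRCh38. A read counter, an annotation, filters and a strand setting were not given in these sources. All 58676 gene IDs were found in GENCODE release 29 (GRCh38). In 5 libraries 100% of the values above 0, once multiplied by exon length, came out as whole reads (tolerance 0.002 of a read). In knockdown replicate 2, 0.302% were whole, and it was left out. SOD2 was listed under 2 IDs and was not used.

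The fit was limma 3.58.1 (lmFit, eBayes with a mean-variance trend) in R 4.3.3 on log2(RPKM + 0.5), without covariates, over the 15408 genes that reached 0.5 RPKM in 3 or more libraries. Benjamini-Hochberg adjustment covered all of them. Fold changes on this scale understate changes of low genes. The 10 members and all lists were chosen with earlier results of these data known. Named genes were the members, 25 pathway genes listed by role, any list gene past the threshold, and the 5 nearest profiles. The markers SERPINA1, TF, APOB, COL1A1, COL1A2, PDGFRA and PECAM1 were outside this rule and were named because their groups did not overlap. Other single markers, TRADD and TICAM1 were outside it too. Sites were sought in the 3' UTR of the transcript with the longest coding sequence. Alternatives were pseudocounts of 0.1 and 1, other filters, 3 scalings, no trend, the replicate number as a block, removal of length and GC trends, limma voom on recovered reads with and without sample weights, and leaving out each library. The code was tested on simulated data.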

Additional observations from a re-analysis of the deposited data

How the results depend on the processing

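Over 17 alternatives, limma called 0 of the 10 members at an adjusted p under 0.05, and with all 5 libraries 6 or 7 members had both knockdown libraries above all 3 controls, against 12.5% to 16.4% of genes tested. With 1 library left out, 7 or 8 members had every remaining knockdown library above every remaining control, against 18.9% to 27.2% of genes. The count of genes called over all genes tested was 40 with the replicate number as a block, 4 with voom and sample weights, and 0 in the other alternatives. Replicate numbers pair libraries by label only: numbers 1 and 3 are shared, and their deviations from the group means correlated at -0.168 and 0.0179. With 2 knockdown libraries their deviations are exact opposites, so these correlations are not separate and cannot settle a pairing. With the block the median of the members was 0.56. The block gave the same log2 differences of the members as leaving out control replicate 2. The median of the 10 members was 0.43 with length and GC trends removed, and 0.48 to 0.64 when leaving out 1 library. The difference between non-canonical and canonical subunits was 0.61 with those trends removed. REL was at 0.03 with the block, 0.13 with trends removed, 0.04 with voom and sample weights, and -0.24 to 0.07 when leaving out 1 library. NFKB1 was at -0.08 to 0.20 when leaving out 1 library. The cause of these shifts was not tested. The remaining values of the members and of the 6 other genes given a log2 difference kept their sign and their side of the threshold. In control replicate 2, REL and BIRC3 rest on 20 reads each.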
